A study of Mus musculus with 18 samples.

Results

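The genes described here encode the proteins that fuse mitochondria, divide them and cut OPA1, and they were taken as a fixed list of 10 of 21770 nuclear protein-coding genes. The fusion genes are Opa1, Mfn1 and Mfn2, the fission genes are Dnm1l, Fis1, Mff, Mief1 and Mief2, and the OPA1-cleaving protease genes are Oma1 and Yme1l1. For each, all intervals of the consensus peak list that overlap the gene or the 10 kb on either side were taken, which gave 45 of 211682 peaks. The rule that picks the genes uses no measured value, though the list was drawn up with earlier results of these data known.

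Accessible chromatin, the DNA that the Tn5 transposase can reach to insert sequencing adapters (ATAC-seq), was mapped in primary cortical neurons grown from CD1 mouse embryos of embryonic day 14.5 to 15. All 18 cultures had cytosine arabinoside at 2 µM against dividing cells, lentiviral short hairpin RNAs (shRNAs) on day 6 and harvest on day 11, and the study asks how accessibility depends on Atf4 with and without loss of Opa1. The groups are shCtrl_shScrambled (5 samples), shOpa1_shScrambled (5), shOpa1_shATF4 (5) and shCtrl_shATF4 (3), so each culture carried a pair of shRNAs and the Opa1 knockdown itself targets one of the genes described here. For shRNA sequences, the promoters that drive them and the pooling of embryos, details were not given in the sources used here. What was deposited is a single list for the whole series, without values by sample or by group, so no gene below is compared between knockdowns, no value has a replicate error, and the depth per sample is unknown.

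Mitochondria join and divide continuously. The mitofusins Mfn1 and Mfn2 are GTPases that join outer membranes, and Opa1 is the GTPase that joins inner membranes and holds cristae junctions tight. Division needs the GTPase Dnm1l, also called Drp1, which adaptors on the outer membrane (Mff, Mief1, Mief2 and Fis1) recruit from the cytosol. Long forms of OPA1 are cut to short forms by Yme1l1 and, when the membrane potential falls, by Oma1, which also passes mitochondrial stress on to the integrated stress response that Atf4 executes. Neurons depend on this balance to supply axons and synapses, and loss of one copy of OPA1 in people causes optic atrophy.

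The marker genes of the labelled cell type were accessible in the list. All 4 neuronal genes checked (Rbfox3, Tubb3, Map2 and Syp) had a peak over an annotated transcript start. By the measure used for the other cell types, a peak within 1000 bp of a gene end, it was also 4 of 4. Most coding genes have such peaks. The share was 62.5% over an annotated start and 70.4% at a gene end, so 4 of 4 is not particular to neuronal genes. Of the microglial genes Aif1, P2ry12 and C1qb and the liver genes Alb, Ahsg and Cps1, 0 of 3 and 0 of 3 had a peak within 1000 bp of a gene end. Of 3 astrocyte genes, Gfap had one at the end opposite its start and Aqp4 and Aldh1l1 had none, though 5 and 11 peaks lay inside them. Of 3 oligodendrocyte lineage genes, Olig1 had one and Mag and Mobp had none. Peaks inside the gene were not particular to the astrocyte genes. The liver genes Cps1 and Alb held 6 and 1, and the microglial genes Aif1 and P2ry12 held 2 and 1. Mag and Mobp held 1 each, and Ahsg, C1qb and Olig1 held none. Of all protein-coding genes, 54.5% held at least 1. A list of peaks shows that a site was open in some of the cells and gives no proportion of cell types.

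The sequences just before the transcript starts are shown for the large GTPases and for Fis1, because each lies at least in part under the peak of its gene and because they differ in the motifs they hold. They come from the RefSeq promoter table (build GRCm38.p6, the assembly that mm10 names), 5′ to 3′ on the strand of the gene. Capitals mark exact matches, on either strand, to the letters searched for Sp/KLF factors (GGGCGG), ETS factors (CCGGAAG), NRF1 (GCATGCGC) and the CCAAT box (CCAAT). The stretches begin 250 bases before the start, and those of Opa1 and Mfn1 stop 24 and 10 bases before it. They lie at chr16:29579084-29579310 (plus strand, Opa1), chr3:32529232-32529472 (plus, Mfn1), chr4:147904910-147905159 (minus, Mfn2), chr16:16359032-16359281 (minus, Dnm1l) and chr5:136953025-136953274 (plus, Fis1).
Opa1: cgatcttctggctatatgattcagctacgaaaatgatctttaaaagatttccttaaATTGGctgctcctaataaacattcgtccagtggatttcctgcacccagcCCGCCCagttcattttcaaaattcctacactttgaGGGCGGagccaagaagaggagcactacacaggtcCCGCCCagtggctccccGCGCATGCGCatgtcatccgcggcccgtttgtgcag
Mfn1: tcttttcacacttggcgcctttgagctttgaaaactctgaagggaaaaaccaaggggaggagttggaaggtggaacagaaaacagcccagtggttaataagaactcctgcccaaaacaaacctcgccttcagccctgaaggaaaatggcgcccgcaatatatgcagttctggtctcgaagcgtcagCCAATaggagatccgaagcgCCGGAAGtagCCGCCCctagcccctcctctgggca
Mfn2: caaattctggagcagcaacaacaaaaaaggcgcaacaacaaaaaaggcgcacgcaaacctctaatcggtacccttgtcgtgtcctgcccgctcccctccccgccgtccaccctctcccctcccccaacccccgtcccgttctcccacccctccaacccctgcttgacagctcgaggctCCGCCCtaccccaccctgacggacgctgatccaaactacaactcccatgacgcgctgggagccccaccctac
Dnm1l: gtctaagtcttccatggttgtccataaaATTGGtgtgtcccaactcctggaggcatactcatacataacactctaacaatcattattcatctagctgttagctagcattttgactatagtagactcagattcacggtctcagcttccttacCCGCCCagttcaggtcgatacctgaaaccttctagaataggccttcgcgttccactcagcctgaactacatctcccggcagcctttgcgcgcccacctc
Fis1: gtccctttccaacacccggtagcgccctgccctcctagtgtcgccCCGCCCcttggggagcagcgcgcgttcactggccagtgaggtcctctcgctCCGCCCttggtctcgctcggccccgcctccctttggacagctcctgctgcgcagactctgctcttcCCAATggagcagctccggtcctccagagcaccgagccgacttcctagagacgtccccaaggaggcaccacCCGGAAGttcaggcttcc

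For the second start of Fis1 and for both protease genes, whose starts lie inside the outermost span of the gene, only 30 bases around matched letters are shown, at chr5:136962045-136962074, chr4:103313730-103313759 and chr2:23156432-23156461, all on the plus strand. A match that runs past the end of a stretch is in capitals as far as it is shown.
Fis1 second start: CCGCCCGCCCcaaggcaaaggaggaagGGG
Oma1: gggaaacggacttggctctcacaaGGGCGG
Yme1l1: CCGGAAGaggcggagcgctgacGGGCGGGG

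Every one of the 10 genes had a peak over an annotated transcript start. Across the genome, 62.5% of the 17491 protein-coding genes that the promoter table holds had one. The outermost ends of the gene records gave 9 of 10, with any base of a peak within 1000 bp of either end, beside 70.4% of all protein-coding genes. The gene that differed was Oma1. Its outermost end lies 1971 bp before its annotated start, and the 1067 bp peak over that start (chr4:103313376-103314442) begins 1501 bp inside the outermost end. The same held for 450 of the 5307 genes of the promoter table that had no peak at an outermost end. All 3 fusion genes, all 5 fission genes and both protease genes therefore had an open start, and the classes did not differ in it.

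**Figure D1:**
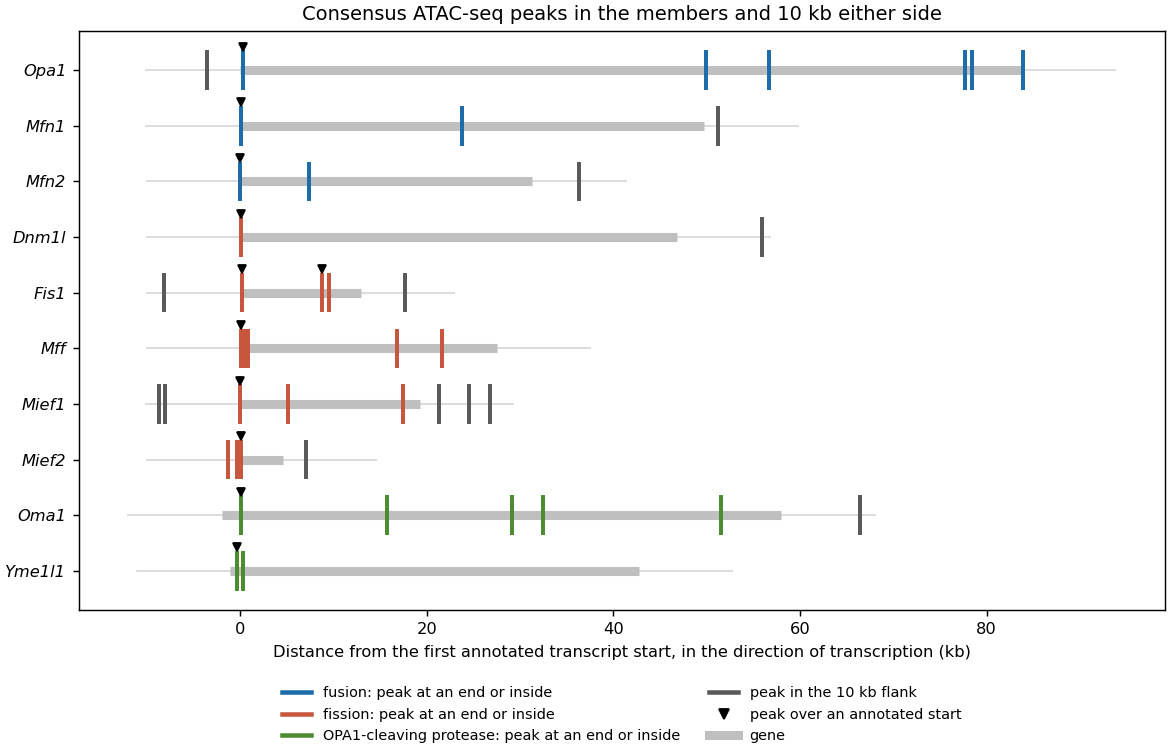
Each row is a gene drawn from its first annotated start in the direction of transcription (kb), with the gene as a thick grey line, the 10 kb flanks as a thin line, and a vertical bar at the centre of each consensus peak, coloured by class or dark grey in a flank. Triangles mark peaks over an annotated start: all 10 genes have one, Fis1 has 2, Dnm1l and Mief2 have no further peak in the gene, and Yme1l1 has one next to that at its start.

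The fusion genes had start peaks of 829 to 1313 bp. At Opa1 the peak was 1008 bp wide (chr16:29579109-29580116) and ran from 225 bp before to 782 bp after the start. At Mfn1 it was 829 bp wide (chr3:32529216-32530044) and ran from 266 bp before to 562 bp after. At Mfn2 it was 1313 bp wide (chr4:147904270-147905582), the widest of the 10 genes, and covered 3 annotated starts. The mitofusins thus differed in the width of the start peak, by 829 against 1313 bp, while each had 3 peaks in all and 1 inside the gene.

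Among the fission genes the start peaks ranged from 578 to 1230 bp. Dnm1l, the GTPase that severs the organelle, had a peak of 956 bp (chr16:16358438-16359393) over both of its annotated starts. Mief1 and Mief2, the paired adaptors that hold Dnm1l at the outer membrane, had peaks of 1043 bp (chr15:80233542-80234584) and 578 bp (chr11:60728187-60728764). Mff, the main adaptor of Dnm1l, had one of 599 bp (chr1:82724664-82725262). The starts of Mff and Mief2 were split over several peaks. At Mff, peaks of 283 and 214 bp followed inside the gene after gaps of 42 and 18 bp. The 214 bp peak ended 929 bp after the first start of Mff. The long non-coding RNA gene C430014B12Rik starts on the other strand 1031 bp after that start. No peak covered its start, but the 214 bp peak cannot be assigned to Mff alone. At Mief2, a peak of 228 bp lay 49 bp before the one over the start. Fis1, a tail-anchored outer membrane protein, had a peak of 1230 bp over its outer start (chr5:136952829-136954058).

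Fis1 was the single gene of the 10 with a separate peak over a further start. Its second annotated start lies in the gene, under a peak of 1119 bp (chr5:136961450-136962568) that began 8.2 kb after the outer start. A peak of 243 bp followed 80 bp later. When only outermost ends are counted, both of these are interior peaks.

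The protease genes had start peaks of similar width, 1067 bp at Oma1 and 975 bp at Yme1l1 (chr2:23155644-23156618). The peak of Yme1l1 lay mostly before its start, from 861 bp before to 113 bp after, and a peak of 241 bp followed after a gap of 67 bp. The peak of Oma1 ran from 470 bp before to 596 bp after. Each of these peaks also covered the start of a gene on the other strand. For Yme1l1 that gene is Mastl, which encodes a mitotic kinase and starts 481 bp away, and for Oma1 it is the long non-coding RNA gene Gm36523, 124 bp away. A peak over a shared region cannot be assigned to either gene.

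**Figure D2:**
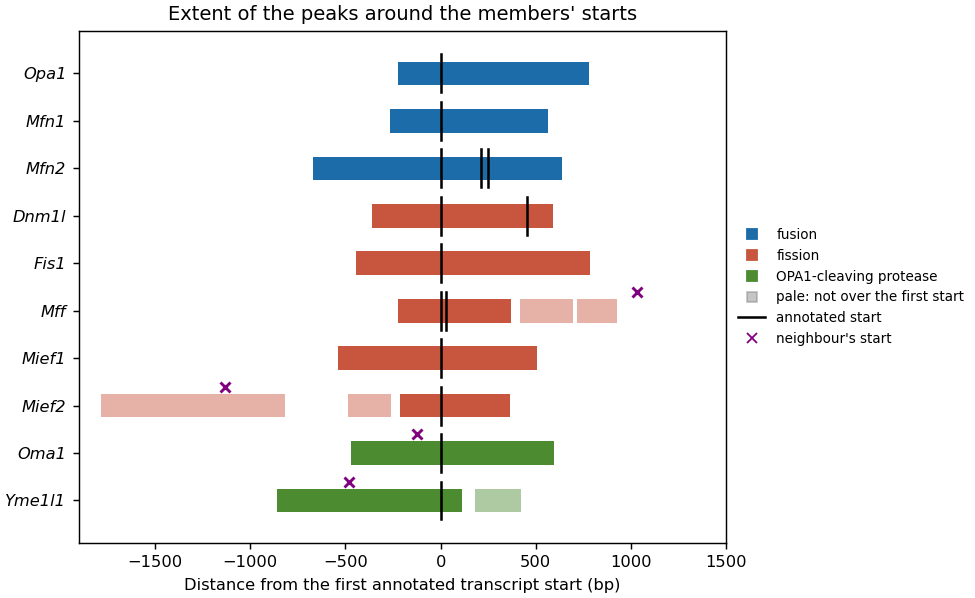
Consensus peaks around the first annotated start of each gene, in bp along the direction of transcription, coloured by class, with pale bars for peaks that do not cover that start, black lines for annotated starts and crosses for starts of neighbouring genes. The bars over the first starts of Oma1 and Yme1l1 each hold a neighbour's start, and a pale bar of Mief2 holds that of Flii. The starts of Mff, Mief2 and Yme1l1 are split into several bars.

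The start peaks of most of the 10 genes were narrower than the usual start peak, which is described here without a test. Their median was 991.5 bp, against a median of 1169 bp (quartiles 931 and 1416 bp) for the widest start peak of the 10936 genes with one. Of the 10 genes, 8 lay below that median, with Mfn2 and Fis1 above it, and Mief2, Mff and Mfn1 lay below the lower quartile. When peaks no more than 100 bp apart were joined, an alternative chosen after seeing the data, the region over the start measured 1156 bp at Mff, 855 bp at Mief2 and 1283 bp at Yme1l1. Measured at first starts, the median of the 10 was then 1055 bp. For all genes it was 1256 bp, but with the widest region over any annotated start. At first starts, 8 of 10 lay below 1256 bp, with Yme1l1 now above it and Fis1, at 1230 bp, below. Left out was the second start of Fis1, with peaks of 1119 and 243 bp separated by 80 bp. The place of Fis1 is therefore not a like comparison. Such splits were common in the list, where 16.2% of all peaks and 9 of the 45 peaks here (20.0%) had another peak within 100 bp.

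**Figure D3:**
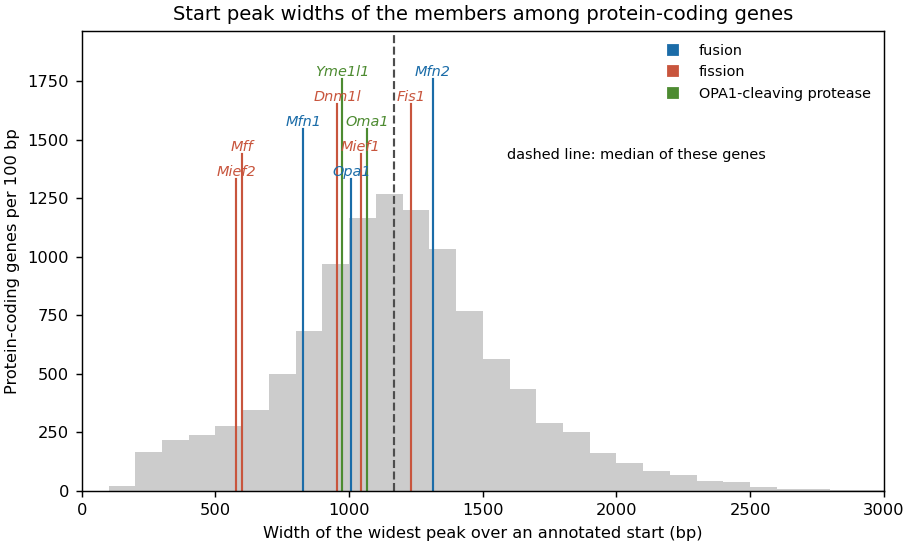
Grey bars count protein-coding genes by the width of their widest peak over an annotated start, in bins of 100 bp, and the dashed line is their median of 1169 bp. Coloured lines mark the 10 genes, of which Mfn2 at 1313 bp and Fis1 at 1230 bp lie to the right of the median.

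Of the 10 genes, 1 had a peak at the end opposite its start. This was Opa1, where a peak of 346 bp covered that end (chr16:29663055-29663400). None of the other 9 genes had a peak within 1000 bp of that end. Of the protein-coding genes in the promoter table, 25.0% had one, and with only 10 genes nothing was read from the difference. The nearest to such an end elsewhere was a peak of 276 bp (chr3:32580545-32580820), 1320 bp beyond the end of Mfn1 and inside the neighbouring gene Gnb4, which encodes a G protein subunit.

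Interior peaks, which overlap the gene but lie more than 1000 bp from both outermost ends, numbered 18. They fell on 8 of the 10 genes, beside 54.5% of all protein-coding genes with at least 1. The median coding gene was 17.2 kb long and most of the 10 are longer. This share and the one by annotated starts are therefore not matched for length. Each class held 6 interior peaks. Per 100 kb of gene this was 3.64 in the fusion class, 5.39 in the fission class and 5.78 in the protease class, against 9.78 over all protein-coding genes. Of the 18, 4 lay within 1000 bp of an annotated start: 1 over that of Oma1, 1 beside that of Yme1l1 and 2 at the second start of Fis1. Counted from annotated starts, a count added after seeing the data, 14 were left, on 6 genes, beside 52.1% of the genes in the promoter table. They were 6 in fusion genes (4 in Opa1 and 1 in each mitofusin), 4 in fission genes (2 in Mff and 2 in Mief1) and 4 in protease genes, all in Oma1. Per 100 kb of gene this was 3.64 in the fusion class, 3.60 in the fission class and 3.85 in the protease class, against 9.38 over the genes of the promoter table taken as a whole. By either count each class was below the density of all genes, which is not matched for length. Interior peaks by outermost ends were also set beside the median of the 200 genes nearest in length. Opa1 had 4 against 7, Mfn1 1 against 4 and Mfn2 1 against 2. Among the fission genes, Dnm1l had 0 against 4, and the others were at or above the median. These were Fis1 with 2 against 0, Mief1 2 against 1, Mff 2 against 2 and Mief2 0 against 0. Oma1 had 5 against 5 and Yme1l1 1 against 3. Counted from annotated starts, each gene was also set beside the 200 genes nearest in length with a peak over a start. Fis1 then had 0 against 0.5, Oma1 4 against 5 and Yme1l1 0 against 3, so all of these lay below the median. Opa1, Mfn1, Mfn2 and Dnm1l were below it by this count too, and Mff, Mief1 and Mief2 were at or above it. The order of the classes depended on the count, since the higher densities of the fission and protease genes by outermost ends included the peaks near annotated starts.

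Those 14 interior peaks measured 182 to 808 bp with a median of 316.5 bp, against a median of 425 bp for all peaks of the list. The whole list includes the wider peaks over starts, so neither its median nor its share of wide peaks is for interior peaks alone. Of the 14, 4 were at least 500 bp wide, beside 38.3% of all peaks. In Opa1 they lay far from the start, at 49.8, 56.5, 77.5 and 78.1 kb after it, and the 49.0 kb between the start peak and the nearest of them held none. The widest of all, 808 bp (chr16:29657394-29658201), was 105 bp from its neighbour of 450 bp (chr16:29656839-29657288), and both lay within 5.84 kb of the end of the gene. In Oma1 the interior peaks of 298, 583, 335 and 204 bp were spread from 15.6 to 51.5 kb after the start. In Mff they were 602 bp (chr1:82741373-82741974) and 508 bp (chr1:82746292-82746799). The first of the pair in Mff ended just before the start of Gm39668, a long non-coding RNA gene inside Mff. Mief1 had interior peaks of 273 and 289 bp, Mfn1 one of 246 bp and Mfn2 one of 359 bp.

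Dnm1l and Yme1l1 had no interior peak by annotated starts. Apart from the peaks at its start, Dnm1l was free of peaks over 46.2 of its 46.8 kb and Yme1l1 over 42.3 of its 43.8 kb. Mief2, at 4.6 kb the shortest of the 10 genes, also had none.

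Longer genes held more peaks, so each gene was set beside the 200 protein-coding genes nearest to it in length, whose median ran from 3 peaks around the length of Mief2 to 10 around that of Opa1. The 6 longer genes (Mfn2, Yme1l1, Dnm1l, Mfn1, Oma1 and Opa1, from 31.3 to 83.8 kb) all had fewer peaks than the median of such genes, counted with the 10 kb flanks. Dnm1l had 2 against a median of 7 and Yme1l1 had 2 against 6. Mfn1 and Mfn2 had 3 each, against 7 and 6, and these 4 genes lay below the lower quartile. With 100 or 400 genes of like length, Mfn2 was no longer below the quartile and the other 3 were. Oma1 had 6 against 8 and Opa1 had 7 against 10, both within the quartiles.

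The 4 shorter genes were at or above the median. Mff had 5 peaks against 5, Fis1 had 5 against 4, Mief2 had 4 against 3 and Mief1 had 8 against 5. Mief1 was the single gene above the upper quartile, which was 7. Of its 8 peaks, 5 lay only in the flanks, most of them at the neighbouring genes described below. A 432 bp peak counted for Fis1 lay inside the neighbouring gene Cldn15. The 3 peaks at the start of Mief2 were all within 1000 bp of an end of the neighbouring gene Flii. When only genes with a peak over an annotated start were compared, chosen after seeing the data, the same 4 genes lay below the lower quartile, and Mff had 5 against a median of 6. The fusion and protease genes thus all lay below the median, and the fission genes lay on both sides of it. As the fusion and protease genes are all at least 31.3 kb long, class and length cannot be told apart here.

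**Figure D4:**
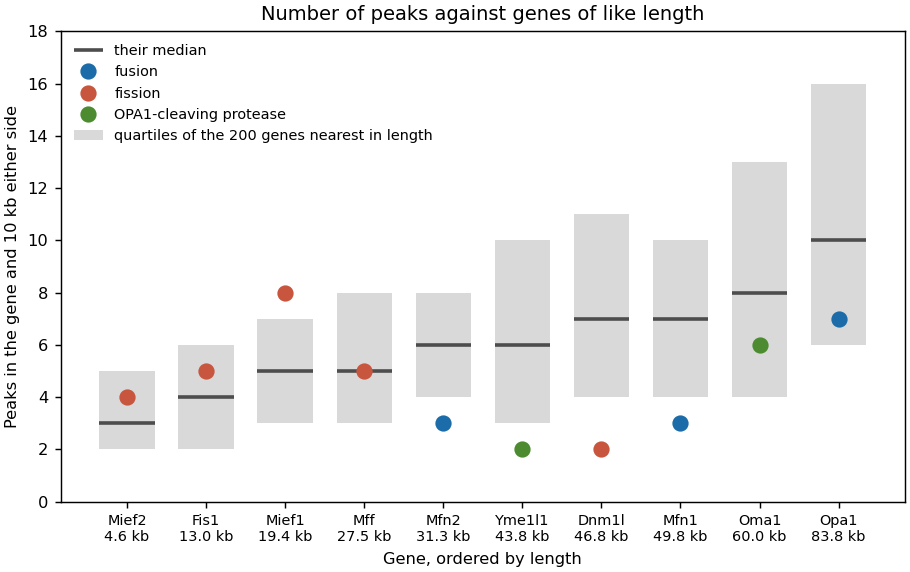
Points give the number of consensus peaks in each gene and the 10 kb on either side, coloured by class and ordered by gene length, over grey bars for the quartiles and a dark line for the median of the 200 protein-coding genes nearest in length. Mfn2, Yme1l1, Dnm1l and Mfn1 lie below the bars. Mief1 lies above its bar, with 5 of its 8 peaks only in the flanks.

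Some of the peaks lay at neighbouring genes. Of the 45, 10 lay within 1000 bp of the end of another protein-coding gene. Mief1 lies 1812 bp before Atf4 on the same strand, the gene targeted by the other shRNA of the study. Of the 8 peaks counted for Mief1, 2 are at ends of Atf4, with widths of 1401 bp (chr15:80254738-80256138) and 434 bp (chr15:80258395-80258828). Another, of 199 bp, is at an end of Rps19bp1. The 328 bp peak far before the start of Mief1 covers the start of the long non-coding RNA gene Gm46521. Mief2 and Flii, an actin-binding protein gene, start on opposite strands 1135 bp apart, and the 3 peaks at the start of Mief2 were all within 1000 bp of an end of Flii, whose own start lay under the 968 bp peak (chr11:60726612-60727579). The microRNA gene Mir5100 lies within the start peak of Mief2. The peak beyond Dnm1l, 1445 bp wide and the widest of the 45, covered the start of Yars2, the mitochondrial tyrosyl-tRNA synthetase gene. The 1091 bp peak beyond Mfn2 covered the starts of Miip and Fv1. Opa1 and Oma1 have no protein-coding gene within 10 kb, so their 7 and 6 peaks are not shared with one.

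An shRNA acts on RNA, and an open start is not a measure of it: nothing here shows how well Opa1 or Atf4 was knocked down. The score of the deposited list stood at 1000 for 43 of the 45 peaks. The exceptions were 1 peak inside Opa1 (290 bp, score 310.561) and 1 at the start of Mff (214 bp, score 308.58), or 4.44% of the 45 against 1.53% of all peaks. With 2 peaks, nothing was read from this.

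The promoter windows of the 10 genes, from 250 bases before to 50 bases after each start, held 15 annotated starts, all under a peak. Open starts were rich in CpG across the genome. The ratio of CpG dinucleotides to the number expected from the C and G content had a median of 0.77 (quartiles 0.59 and 0.91) at 12995 protein-coding starts with a peak and 0.19 (0.10 and 0.32) at 8267 without. The outer starts of 9 of the 10 genes lay between 0.68 (Dnm1l) and 1.03 (Mff), and Mfn1 was lower at 0.52. Opa1 had 0.85, Mfn2 0.87, Oma1 0.73 and Yme1l1 0.90. The second start of Fis1 had 0.36, against 0.70 at its outer start, yet the peaks over them were 1119 and 1230 bp wide.

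**Figure D5:**
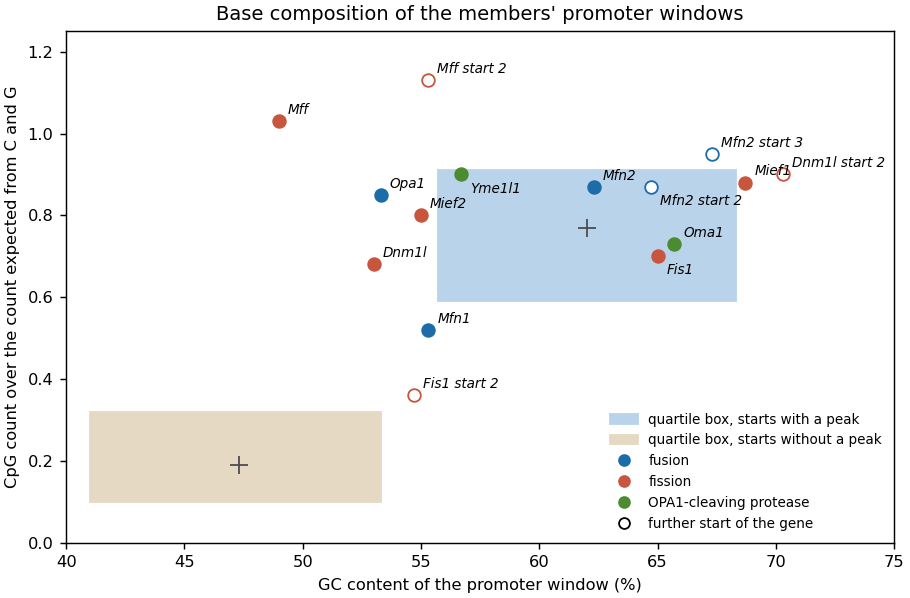
GC content (percent) against the ratio of CpG dinucleotides to the number expected, in the 300 bp window of each annotated start, filled for the first start of a gene and open for further starts. Boxes span the quartiles of protein-coding starts with and without a peak and plus signs their medians: Mfn1 (0.52) and the second start of Fis1 (0.36) have lower ratios than the lower edge of the box of starts with a peak.

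Exact motif letters were searched on both strands of these windows. Windows of starts close together overlap, as at Mfn2 and Mff, so the 15 are not separate promoters. At Mff the same Sp/KLF site is counted in both windows. The Sp/KLF letters GGGCGG occurred in 13 of the 15 windows and in at least 1 window of every gene, beside 66.7% of the starts with a peak and 46.2% of all 21262 protein-coding starts. The NRF1 letters GCATGCGC occurred at Opa1 alone, beside 5.3% of the starts with a peak. They match there on each strand, with an overlap, from 59 to 50 bases before the start, which is the longest run of capitals in the Opa1 sequence above. NRF1 is a factor of many nuclear genes for mitochondrial proteins. The ETS letters CCGGAAG occurred at Mfn1, Dnm1l, Fis1, Mief1 and Yme1l1, which is 6 of the 15 windows beside 17.2% of the starts with a peak, with 3 matches at Yme1l1. At Mfn1 and the outer start of Fis1 they lay 44 and 18 bases before the start. CCAAT occurred in 7 of the 15 windows, each of a different gene, beside 38.0% of the starts with a peak. The E-box letters CACGTG occurred at Mief2 alone, beside 10.2%. The letters of the composite element bound by Atf4 with C/EBP factors (TGATGNAA), of the cyclic AMP response element (TGACGTCA) and of YY1 (AAGATGGC) were in none of the 15 windows, beside 2.1%, 3.3% and 4.2% of the starts with a peak. A match of letters is not evidence of binding, and its absence from a window of 300 bases says nothing of sites elsewhere.

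The wider pathway was described with 37 further genes in 4 lists. All 37 had a peak within 1000 bp of an outermost end, beside 70.4% of protein-coding genes, and all 29 of them that the promoter table holds had one over an annotated start. By list this was 9 of 9 genes of cristae organisation, 8 of 8 partners of inner membrane proteolysis, 9 of 9 fission helpers and 11 of 11 fusion regulators and outer membrane factors. The widest end peaks were 1381 bp at Micos10 of the cristae complex MICOS, 2000 bp at Afg3l1, a subunit of the inner membrane m-AAA proteases, 1736 bp at Mtfr1l and 1627 bp at Pld6, the mitochondrial phospholipase. A peak at the end opposite the start was found at 11 of the 29 genes in the promoter table, and at 1 of the 10 genes above, beside the 25.0% of all genes in that table. In number of peaks, 25 of the 37 lay above the median of genes of like length and 11 below it, with 10 above the upper quartile and 1 below the lower quartile. Those genes of like length include ones without a peak at an end, whereas all 37 had one. For the 37, no comparison with only genes that have a start peak is given here. Of the core genes of fusion, fission and OPA1 cleavage, 3 of 10 were above the median and 4 of 10 below the lower quartile. Whether these groups of genes differ was not tested.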

How the data were processed

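The members and the pathway and marker lists were chosen with earlier results of these data known. ATAC-seq was run on 18 cultures with paired reads of 50 bp, per the labels' protocols. The authors deposited 1 consensus list of peaks with a score for each. The peak names carry MSPC, a program that combines peak calls of replicates. MACS2, deepTools and MultiQC, with the build mm10, are named in the submitters' processing notes. The aligner, read shift, duplicate and mitochondrial read handling, thresholds and the samples behind the list were not given in the sources used here. A site open in 1 group alone may therefore be missing, and the precision that depth gives is unknown. The planned tests of counts between groups were not run, since the list has no values per sample.

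Starts were raised by 1, and overlaps were counted with any base. Gene spans came from 49997 genes of a RefSeq table (GRCm38.p6), without genes on scaffolds, and strands and transcript starts from the RefSeq promoter table, which holds all 10 members. Its missing genes are left out of values by annotated starts. Windows were 1000 bp around ends and 10 kb around genes. The rule for named genes takes all members, genes that share a peak at a member's end, protein-coding neighbours within 10 kb, and of each pathway list the gene with the widest end peak and up to 3 with none. Not all such neighbours are described: Zfp639, Plod1, Col4a3, Tm4sf20, Top3a and Potegl fall under the rule but were left out. Marker genes come from their lists. Named outside the rule, after their values were seen, are the non-coding neighbours C430014B12Rik, Gm39668, Gm46521 and Mir5100 and the pathway genes of the closing observations. No significance test was made, because genes are not replicates. Counting and motif search were tested on simulated data with known answers. Python 3.11.15, numpy 2.4.6, pandas 2.3.3 and matplotlib 3.10.9 were used. Alternatives are in the closing section.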

Additional observations from a re-analysis of the deposited data

How the results depend on the processing

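No paired analysis was possible because the deposited list gives no measurement by sample. For the same reason no other scaling of counts and no leaving out of replicates was run. Of 83 alternative values, 67 stayed within 1.5 times the reported value. Peaks over annotated starts, joined peaks and other comparisons with genes of like length were added after seeing the data. With peaks of at least 500 bp, 20 of the 45 peaks were left (5 in fusion, 12 in fission and 3 in protease genes) and 6 of the 18 interior peaks (1, 3 and 2), while all members that had an end peak kept one in this setting. With 50 kb flanks there were 137 peaks (43, 74 and 20), since the windows then reach more neighbours. The count of protease genes with an end peak, 1 of 2, was 2 with windows of 2500 bp and with annotated starts, 0 with a peak over the outermost end itself and 0 without peaks at another gene's end, which removes the peak shared by Yme1l1 and Mastl. Joining peaks within 100 bp gave a median width of 1055 bp at the first starts of the members. All values describe a single pooled list: depth per sample is unknown, and peaks of weakly open sites may be missing from it.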

Other observations

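Among the 37 further pathway genes, those described here were chosen after their values were seen, and no list was tested. Trak1, an adaptor that links mitochondria to motor proteins, had 54 peaks in its 177.4 kb and flanks, against a median of 21 and an upper quartile of 31 in genes of like length, while its paralogue Trak2 had 6 in 73.9 kb against a median of 9. Chchd6 of the MICOS complex had 47 against 25, and Chchd3 of the same complex had 29 against 33.5. Spire1, an actin nucleator, had 25 in 124.6 kb against 16, and Dnm2, the widely expressed dynamin, had 17 in 82.9 kb against 10.5. Inf2, a formin that builds actin at sites of division, had 19 in 26.8 kb against 5, and Samm50 of the outer membrane sorting machinery had 13 in 23.8 kb against 4. Apoo, a MICOS gene on chromosome X, had 1 against 7 and was the single gene of the 37 below its lower quartile.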
